A study of Mus musculus with 66 samples.

Results

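The peaks of class nB are 2277 of the 35266 Nr5a2 binding regions that the authors listed for mouse embryonic stem cells, or 6.46% of the list. They were chosen by the class code in the authors' list, which was set on measured binding. The other 3 codes are L with 22970 peaks, eB with 6398 and dB with 3621. What the codes stand for is not given in the sources used here, so the class is called by its code. Because the code was selected on the binding data, differences in the peaks' own properties between classes are descriptions without a test.

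Nr5a2 was profiled by ChIP-seq in wild-type E14Tg2a cells of the 129/Ola background. There were 4 groups of 3 libraries, which were Nr5a2 and input, each in interphase and in mitosis. The list holds positions and codes with no signal per library, so binding strength was not analysed here. RNA came from an E14Tg2a derivative, also 129/Ola, in which auxin degrades the Esrrb and Nr5a2 proteins together. Its 18 groups of 3 libraries were 2 arms, without and with auxin, at 9 stages. The arm was read from the sample titles, because the treatment label is ctl for every RNA library, and each auxin difference rests on those titles. The stages were asynchronous cells, mitotic arrest, and 7 times after release from the arrest, every 10 minutes from 20 to 60 and then at 90 and 120 minutes. Cells without auxin carried the same degradable proteins, and no group received auxin without them. The actions of auxin, of losing Esrrb and of losing Nr5a2 cannot be told apart here. Whether the derivative is 1 clone, and whether the 3 libraries of a group were separate cultures, is not given in the sources used here.

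Nr5a2, also called Lrh-1, is an orphan nuclear receptor that binds DNA as a monomer at a nuclear receptor half-site extended at its 5′ side. Esrrb recognises a closely related extended half-site, and both receptors take part in the network that keeps embryonic stem cells in the naive state. Some transcription factors stay on part of their sites in mitotic chromosomes, a property called mitotic bookmarking, and the study addressed Nr5a2 binding in mitosis and gene reactivation afterwards.

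Sequence was at hand only for promoter windows, which run from 250 bases before to 50 bases after an annotated gene start in RefSeq on GRCm38.p6. The following 5 windows are shown because each holds, inside an nB peak, 1 of the 9-base forms of the extended half-site that were searched. Capitals mark the match, and each sequence is written 5′ to 3′ on the strand of the gene.
Elovl6: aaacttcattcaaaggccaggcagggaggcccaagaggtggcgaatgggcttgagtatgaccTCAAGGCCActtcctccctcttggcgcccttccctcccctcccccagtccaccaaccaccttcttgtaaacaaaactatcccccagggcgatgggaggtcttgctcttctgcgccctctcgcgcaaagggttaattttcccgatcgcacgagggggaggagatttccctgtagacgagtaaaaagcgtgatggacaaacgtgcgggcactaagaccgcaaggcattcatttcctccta
Msrb2: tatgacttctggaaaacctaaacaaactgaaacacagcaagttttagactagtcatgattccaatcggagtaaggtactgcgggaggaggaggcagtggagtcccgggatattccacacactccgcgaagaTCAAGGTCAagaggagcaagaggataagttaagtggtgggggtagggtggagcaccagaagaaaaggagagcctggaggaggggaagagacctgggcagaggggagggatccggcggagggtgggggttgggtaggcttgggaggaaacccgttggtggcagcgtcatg
Rabepk: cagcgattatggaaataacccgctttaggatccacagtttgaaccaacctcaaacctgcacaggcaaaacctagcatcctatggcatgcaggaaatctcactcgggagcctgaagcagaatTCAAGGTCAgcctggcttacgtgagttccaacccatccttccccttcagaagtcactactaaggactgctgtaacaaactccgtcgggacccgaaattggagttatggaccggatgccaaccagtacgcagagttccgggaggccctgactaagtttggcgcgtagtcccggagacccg
Pld6: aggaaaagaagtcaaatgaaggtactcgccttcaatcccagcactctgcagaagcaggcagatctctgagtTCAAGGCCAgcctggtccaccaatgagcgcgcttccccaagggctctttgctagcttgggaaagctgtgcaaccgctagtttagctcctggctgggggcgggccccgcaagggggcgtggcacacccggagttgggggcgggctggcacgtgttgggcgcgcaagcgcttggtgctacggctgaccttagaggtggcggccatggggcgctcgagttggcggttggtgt
Clec2d: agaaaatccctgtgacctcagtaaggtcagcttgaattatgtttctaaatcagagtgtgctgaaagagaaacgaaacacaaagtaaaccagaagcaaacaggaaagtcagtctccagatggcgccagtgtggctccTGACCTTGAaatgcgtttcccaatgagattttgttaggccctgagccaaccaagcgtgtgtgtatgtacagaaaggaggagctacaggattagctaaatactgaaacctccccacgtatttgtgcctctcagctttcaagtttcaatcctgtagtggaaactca

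The Elovl6 window, chr3:129532136-129532435 on the plus strand, lay wholly in an nB peak of 837 bases. Its TCAAGGCCA began 188 bases before the annotated start and 184 bases from the peak centre. Elovl6, an elongase of long-chain fatty acids, was called lower with auxin in the authors' deposited table. The Msrb2 window, chr2:19371386-19371685 on the plus strand, held TCAAGGTCA 119 bases before the start of a gene for a methionine sulfoxide reductase. The Rabepk window, chr2:34799863-34800162 on the minus strand, held TCAAGGTCA 129 bases before the start. Pld6, a phospholipase of the mitochondrial surface, has the window chr11:59787608-59787907 on the minus strand, of which 146 bases lay in an nB peak. Its TCAAGGCCA began 179 bases before the start. The Clec2d window, chr6:129180365-129180664 on the plus strand, held TCAAGGTCA on the other strand than the gene, 114 bases before the start of this C-type lectin gene. None of Msrb2, Rabepk, Pld6 and Clec2d was called in the authors' table, and Clec2d was near 0, at 0.206 TPM at most.

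Either 9-base form, TCAAGGTCA or TCAAGGCCA on either strand, occurred in 8 of the 100 promoter windows that an nB peak overlapped (8%, 95% Wilson interval 4.11 to 15.0). The share was 4.16% of 361 windows under dB peaks, 1.95% of 819 under eB, 1.90% of 1002 under L and 1.01% of all 32817 windows. The nB interval overlapped that of dB. Its lower bound lay above the eB and L intervals of 1.21 to 3.15 and 1.22 to 2.94%. These intervals treat windows as independent, although some nB windows overlap and share a site. They are therefore too narrow for nB, and a separation from eB and L cannot be read from them. Each form was in 4 of the 100 nB windows, against 0.424% of all windows for TCAAGGTCA and 0.591% for TCAAGGCCA. Only the part of a window under the peak bears on binding, and there the match was in 7 of 100 windows. These are 5 distinct sites, because some windows overlap. The central 200 bases of an nB peak reached just 31 windows, and 1 of them held a match (3.23%), below the 7.25% of dB, so the order of nB and dB turned with the part of the peak read. The shorter TCAAGG was counted only where it was not part of either longer form. It was in 17% of nB windows, 17.1% of L, 16.1% of eB and 16.6% of dB windows, and in 13.6% of all windows. The estrogen response element, a palindrome of the half-site, was in 0 of 100 nB windows (upper bound 3.70%) and in 0.0701% of all windows. The nB windows had a median GC content of 55.8%, close to the 55.0% of L windows and below the 60.7% of eB and 59.7% of dB.

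The nB peaks were of intermediate width. Their median was 663 bases (95% interval from order statistics 649 to 676), with quartiles of 496 and 901. L peaks were narrower, at 540, and eB and dB peaks wider, at 765 and 901. Chromosomes served as a check of these orders in place of a test. The nB median was above that of L on 20 of 20 chromosomes, below that of dB on 20 and below that of eB on 18. Among chromosomes the nB median ran from 611 on chromosome 7 to 785 on chromosome X, which had only 21 members. The plot of widths shows the nB curve between those of L and eB over most of its range.

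**Figure D1:**
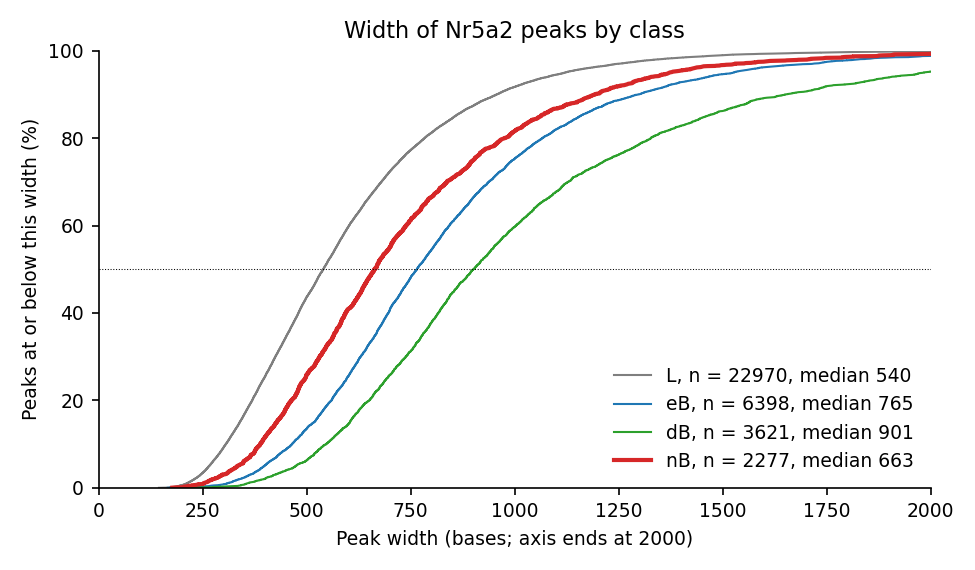
Cumulative share of peaks (percent, vertical axis) at or below each width (bases, horizontal axis ending at 2000) for the 4 classes. The nB curve crosses 50% at 663 bases, between L at 540 and eB at 765.

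Single members reached far beyond the quartiles. The widest nB peak, chr16:9132271-9136289, spanned 4018 bases and overlapped no annotated gene. The next, chr9:58273646-58277296, spanned 3650 bases and lay 22307 bases from the start of Stoml1. The narrowest, chr11:120800030-120800207, measured 177 bases and lay 3723 bases upstream of Dus1l. In all, 75 nB peaks (3.29%) were at least 1500 bases wide, against 13.8% of dB, 5.36% of eB and 1.03% of L peaks.

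Members with another nB peak within 10 kb were narrower, with a median of 612 (572 to 644), than the 1933 without one, at 672 (656 to 689). The median was 658.5 bases (638 to 673) inside genes and 674 (649 to 699) outside, and these intervals overlapped. Peaks over 50 kb from a gene start had a median of 717 (676 to 753), above the 650 (629 to 675) of those at 1 to 10 kb.

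Every chromosome with a listed peak, 19 autosomes and X, carried nB peaks, at unequal shares. Chromosome 11 had the most, 270, and the highest share, 8.82% of its peaks (95% Wilson interval 7.87 to 9.88). Chromosomes 7 and 8 followed with 8.0 and 7.79%. The lowest shares were 4.11% on X (2.70 to 6.20) and 4.21% on chromosome 1 (3.49 to 5.07), where 106 of 2517 peaks were nB. Chromosome 11 held 11.9% of all nB peaks and 12.2% of dB peaks, but 7.71% of L peaks. The plot by chromosome shows that the intervals of chromosomes 11 and 1 do not overlap.

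**Figure D2:**
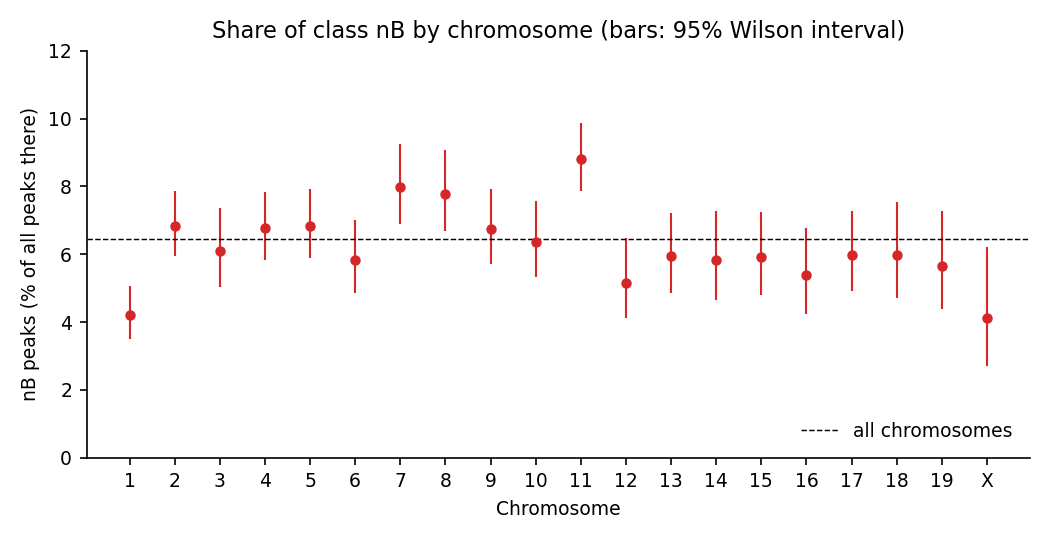
Percentage of the peaks on each chromosome that are of class nB (points), with 95% Wilson intervals (bars) and the share over all chromosomes, 6.46% (dashed line). Chromosome 11 is highest at 8.82%, and chromosomes X and 1 are lowest at 4.11 and 4.21%.

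The nB peaks were rarely alone. The median distance from an nB peak centre to the nearest peak of any class was 7109 bases (6480 to 7809). It was 10399 for L, 12541.5 for eB and 9507 for dB, and nB was the closer on 18, 19 and 19 of 20 chromosomes. A peak of some class lay within 10 kb of 57.8% of nB peaks, against 49.0% of L, 45.0% of eB and 51.3% of dB peaks. Only 58 nB peaks (2.55%) had none within 100 kb, a share of 6.77% for L.

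The nearest peak was more often of the same class than the list as a whole, as in the other classes. Another nB peak lay within 10 kb of 344 nB peaks (15.1%), while an nB peak lay within 10 kb of 5.28% of L, 4.88% of eB and 8.12% of dB peaks. Another dB peak lay within 10 kb of 12.7% of dB peaks. The nearest peak was itself nB for 324 members (14.2%), although nB made up 6.45% of all other peaks and at most 8.82% of those on any chromosome. For dB the shares were 14.2 and 10.3%, for eB 21.3 and 18.1% and for L 68.7 and 65.1%. A dB peak was the nearest for 12.6% of nB peaks. Still, the typical distance between nB peaks was long, with a median of 113698 bases (105069 to 121022).

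The closest pair, chr11:54986339-54986628 and chr11:54986650-54987098, lay in Anxa6 with centres 391 bases apart. Adcy10 held the next pair, 409 bases apart, and Itgae the third, 419 bases apart. The gaps between the edges were only 22, 119 and 96 bases. Whether such pairs are 1 bound region listed as separate peaks was not tested. The densest stretch of 100 kb, chr11:106635639-106729190, held 8 nB peaks around Pecam1, with 5 L and 3 dB peaks. Another with 7 nB peaks, chr5:135898707-135973768, lay at Ywhag and Ssc4d.

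Most nB peaks were near genes without lying at their starts. Distances used 32851 annotated starts of 27025 genes, which left out 65 nB peaks on a chromosome not covered by the table of starts. An annotated start lay within 1 kb of the centre of 159 nB peaks (7.19%, 6.18 to 8.34), close to the 6.87% of L and below the 16.1% of eB and 11.6% of dB. At 1 to 10 kb from a start the order changed. This band held 33.7% of nB peaks (31.7 to 35.7), 25.5% of L, 24.2% of eB and 29.3% of dB, and nB was above them on 18, 19 and 15 of 19 chromosomes. Members there lay upstream of the start in 48.9% of cases. Farther than 50 kb were 16.1% of nB peaks, the smallest share among the classes, against 26.4% of L.

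**Figure D3:**
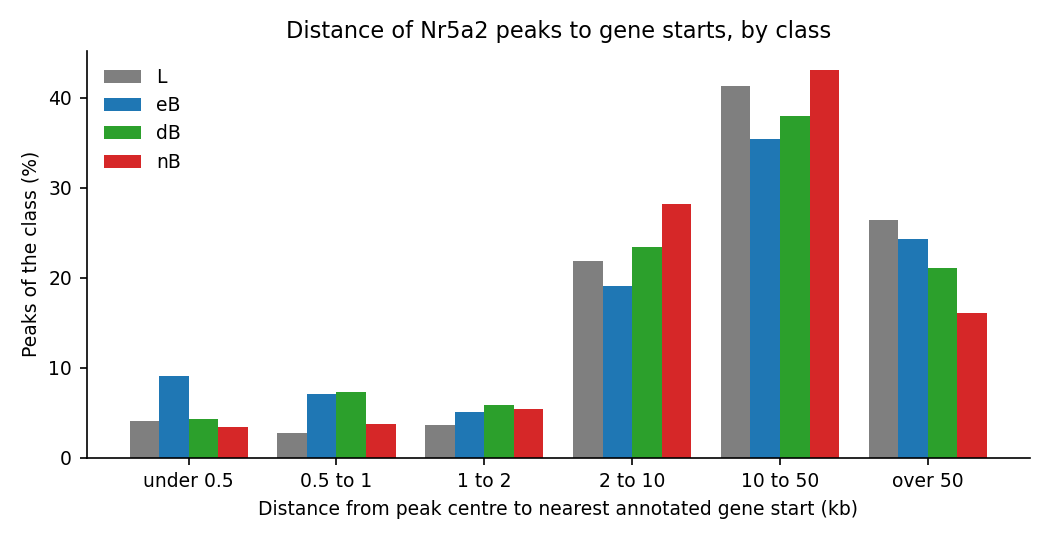
Percentage of the peaks of each class (bars) by distance from the peak centre to the nearest annotated gene start (kb). Class nB has 28.2% of its peaks at 2 to 10 kb and 16.1% beyond 50 kb, while class eB has 9.10% within 0.5 kb.

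RNA levels are in TPM, a measure of transcript abundance that corrects for the length of a gene and the size of a library. The authors gave 1 mean per group without its spread, so no gene has a test here. The listed genes of a group sum to 17155 to 49059 TPM, and the depth of the libraries is unknown. The table's call of lower, higher or not responsive with auxin was the authors', made on these same samples. Embryonic stem cell markers were present. Of the 8 looked for, 7 were in the table, which lacks Sox2. All 7 reached 1 TPM, with a summed level of 34.6 to 117 TPM over the groups. Of fibroblast markers, 4 of 10 were in the table and Fn1 and Vim reached 1 TPM. None of 4 primitive endoderm markers in the table did so, and of 5 trophectoderm markers Eomes alone did. The longer lists of these cell types read below also hold genes that did so. Among those near an nB peak they are Sparc for primitive endoderm and Tfap2c for trophectoderm, the latter at 3.85 TPM at 60 minutes without auxin. RNA does not check the degradation, which acts on protein.

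A gene was counted as near an nB peak when the peak lay in the gene or within 10 kb of either end. This held for 1731 of the 13940 genes with a usable position, or 12.4%. Of the nB peaks, 1071 (47.0%) lay in a listed gene, 488 were within 10 kb of one and 718 were farther away. A single nB peak was near 1468 of the genes, 2 were near 214, and 49 genes had 3 or more. These genes were also rich in other peaks, since 69.7% had an L peak, 37.6% an eB peak and 30.4% a dB peak, and 290 had nB peaks alone.

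Genes near nB peaks were called lower with auxin at 15.0% (259 of 1731, 13.4 to 16.7), against 7.27% of all genes with a position. Genes near dB peaks stood at 16.5%, eB at 12.7%, L at 10.4%, and genes without a peak at 1.97%, and these sets share many genes. Calls of higher were made for 87 genes near nB peaks (5.03%, 4.09 to 6.16), against 6.74% of all. Among the 1252 of these genes with at least 1 TPM in some group, RNA was lower with auxin at all 7 release times in 124 (9.90%), against 5.34%, and higher at all 7 in 41 (3.27%), against 3.87%. Genes near dB, eB and L peaks were also called higher less often than all genes, at 5.29, 4.98 and 6.34%. In the same order, 12.8, 9.95 and 7.90% were lower at all 7 times and 3.38, 3.01 and 3.25% higher.

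The share called lower went with the number of peaks of any class near a gene. Gene length went with that number too, and its part was not tested. With 1 peak, the median length was 17120 bases for genes with an nB peak and 19425 for genes without one. With 6 or more peaks it was 99137 and 147942. Genes with nB peaks alone were called lower at 3.10% (9 of 290, 1.64 to 5.79), below the share over all genes. With exactly 1 peak of any class, the share was 2.99% where it was nB, 3.07% for L, 4.19% for eB and 7.24% for dB. With 3 peaks it was 11.3% among genes with an nB peak and 11.4% among genes without one. With 6 or more peaks the shares were 30.4% (26.0 to 35.3) and 23.7% (20.3 to 27.5). The 95% Wilson intervals of genes with and without an nB peak overlapped in each of the 5 groups by peak number. These groups were formed after the data were seen.

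**Figure D4:**
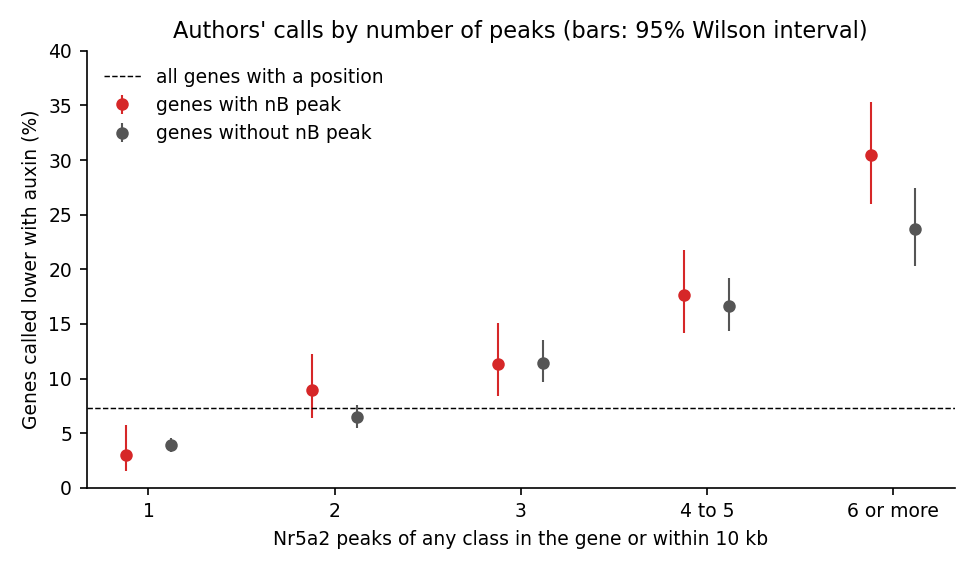
Percentage of genes that the authors called lower with auxin (vertical axis) by the number of Nr5a2 peaks of any class in the gene or within 10 kb (horizontal axis), for genes with and without an nB peak; bars are 95% Wilson intervals and the dashed line is the share over all genes with a position, 7.27%. Both series climb from under 4% at 1 peak to 30.4 and 23.7% at 6 or more.

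Company of a dB peak marked the genes most often called lower. Of 526 genes with both nB and dB peaks, 140 were called lower (26.6%, 23.0 to 30.6). The share was 13.8% (12.3 to 15.4) for dB without nB and 9.88% (8.32 to 11.7) for nB without dB. The median number of peaks was 5 for the first set and 3 for each of the others, and the part of peak number in this order was not tested beyond the groups given here. Within 6 or more peaks, nB with dB stood at 36.4% (30.3 to 43.0), dB without nB at 26.8% (21.8 to 32.6) and nB without dB at 21.9% (16.0 to 29.1).

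Peak width was set beside the calls within the class. The 312 nB peaks near a gene called lower had a median width of 703.5 bases (674 to 762), and the 1143 near genes not called had 640 (626 to 663), with the former wider on 16 of 20 chromosomes. The 104 near a gene called higher and none called lower were as wide, at 700 (579 to 760), and the 718 without a listed gene within 10 kb had 673 (652 to 703). Genes near the widest 25% of nB peaks were called lower at 20.8% (17.3 to 24.7), and those near the narrowest 25% at 12.7% (10.1 to 16.0). The median number of peaks near these genes was 3 in each of the 4 groups of width. A median does not compare the genes with many peaks, and the part of peak number in this order was not tested. The same order of calls by width held in the other classes, with 28.9 against 12.4% for dB. There the median peak number was 4 near the widest and 3 near the narrowest 25%.

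After release the RNA of nB genes followed that of other genes. The median log2 ratio to mitosis on log2(TPM + 1), a scale that understates changes of low genes, was 0.11 at 40 minutes, 0.60 at 50, 0.94 at 60, 0.90 at 90 and 0.78 at 120 minutes without auxin. Over all 8988 genes of at least 1 TPM it was 1.01 at 60 minutes. At least 2-fold above mitosis at 60 minutes were 583 of 1252 nB genes (46.6%), against 50.8% of all. The 213 genes with nB peaks alone had 58.2% and a median of 1.15 (1.02 to 1.22), while dB, eB and L peaks alone gave medians of 1.17, 1.12 and 0.998. The highest of the 7 release values fell at 60 minutes for 42.7% of nB genes and for 53.5% of those with nB peaks alone, against 45.6% of all.

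With auxin, the median difference over the 1252 nB genes was near 0. As the mean over the 7 release times it was 0.0039 (-0.0013 to 0.0075), against 0.016 over all genes, and without the 40 minute groups it turned to -0.0061. In asynchronous cells it was -0.059 (-0.066 to -0.053), against -0.039. The median over all genes itself moved between stages, from 0.077 at 40 minutes to -0.061 at 60 minutes, and the nB median moved with it, from 0.057 to -0.076. The nB median was below that of all genes at each of the 9 stages, as were those of L, eB and dB genes. The median of genes with nB peaks alone was above that of all genes at 8 of the 9, 40 minutes being the exception. Its interval took in the median of all genes at every stage except 50 minutes (0.0020 to 0.025, against 0.0019). As the mean over the release times, the median with nB peaks alone was 0.021 (0.012 to 0.028), against 0.016 over all genes. It was also above 0.016 with dB or L peaks alone (both 0.018) and without a peak (0.029). With eB peaks alone it was 0.0088. The differences of single genes given here are not corrected for these shifts of the whole table.

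The 225 nB genes called lower and of at least 1 TPM had a median difference of -0.11, the same to 2 decimals as the 851 such genes of the whole table. They were lower in asynchronous cells in 221 cases (98.2%, against 94.6% of the 851), at a median of -0.22. They were lower at all 7 release times in 96 cases (42.7%, against 40.9%). Less the median of all genes at the same stage, their difference was already -0.097 in mitosis, where 208 of the 225 were lower. On that scale it was -0.10 to -0.11 from 20 to 60 minutes, -0.16 at 90 and -0.20 at 120 minutes. Without that step it was -0.092 in mitosis, -0.036 at 40 minutes, -0.16 at 60 and -0.16 at 120. The 851 genes of the whole table were much the same without that step. Their values were -0.094 in mitosis, -0.039 at 40 minutes, -0.17 at 60 and -0.15 at 120. In mitosis 790 of the 851 were lower (92.8%), against 46.2% of all genes. The calls were made on these same samples, so a difference below 0 was likely beforehand. The 75 called higher had a median difference of 0.085. Less the median of all genes it was 0.094 at 40 minutes and 0.059 at 60, and without that step 0.17 and -0.0019.

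Among the lists of genes read, naive pluripotency stood out by its calls. Of its 39 genes in the table, 14 had an nB peak, and the authors called all 14 lower. Other classes were near more of the 39, with an L peak near 36, a dB peak near 22 and an eB peak near 20. Of the 25 without an nB peak, 16 were called lower, so most of them were called lower as well. The list was put together with earlier results of these data known and is not independent evidence of direction. In place of a set test, the median difference of the 13 members of at least 1 TPM was -0.24. It was -0.11 over the 225 nB genes called lower and of at least 1 TPM, and 0.0039 over all nB genes. The 13 members were all called lower on these same samples, so a median below 0 was given beforehand. The other lists are short and are to be read beside the 12.4% of all genes near an nB peak and the 7.27 and 6.74% called lower and higher. Formative and primed genes had an nB peak in 4 of 16 cases, with 1 called lower (Etv5, a transcription factor, at -0.20). Nuclear receptors had one in 5 of 28 cases, with 2 called lower, Esrrb and Nr0b1, which are also in the naive list. Their coregulators had one in 6 of 20, with 1 called lower (Ncoa3, at -0.14) and 1 higher (Ppargc1b, at 0.058). Genome architecture genes had one in 2 of 12, Pds5a and Pds5b, neither called. Of 9 trophectoderm genes, 2 had one, Eomes, not called, and the transcription factor Tfap2c, called lower at -0.39. Of 10 primitive endoderm genes, 2 had one, Col4a2 and Sparc, neither called. Of 4 fibroblast markers only Vim had one, and it was not called.

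Jam2, a junctional adhesion molecule, had the lowest mean difference of the nB genes called lower and of at least 1 TPM. Its nB peak, chr16:84767831-84768487, lay 5636 bases outside the gene, among 5 dB and 3 L peaks. Without auxin its level was 7.19 TPM in asynchronous cells and 3.57 in mitosis. It was then 3.55, 2.83, 2.38, 3.14, 4.73, 7.07 and 7.57 TPM in the order of the release times. With auxin it was 2.68 in asynchronous cells and 2.03 in mitosis, then 1.83, 1.78, 1.86, 1.79, 2.34, 2.80 and 2.63. All 7 values with auxin lay below those without, and the 2 series drew apart most at 90 and 120 minutes. The mean difference was -0.72 on the log2 scale.

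Dppa5a, an RNA-binding protein of pluripotent cells, had 2 nB peaks, 1 of them 164 bases from the gene at chr9:78368363-78370041. That peak is also the nB peak of Ooep, an oocyte and embryo gene, so the 2 genes do not count as separate evidence. Without auxin, Dppa5a went from 5.90 TPM in mitosis through 6.17, 9.78, 19.2, 28.0, 31.0, 22.7 and 16.7 TPM after release. With auxin the mitotic value was 6.10 and the release values were 6.55, 9.18, 11.0, 20.2, 18.6, 13.1 and 7.55. The arms were close up to 30 minutes and apart from 40 minutes on, with a mean difference of -0.53, and asynchronous cells had 26.3 and 14.0 TPM.

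Zfp42, also called Rex1, is a marker of naive cells. It had 1 nB peak, chr8:43287850-43288527, 6540 bases from the gene. Its release values without auxin were 18.6, 15.9, 17.2, 29.8, 43.2, 60.7 and 61.3 TPM, and with auxin 15.9, 15.1, 15.8, 21.8, 28.9, 43.0 and 46.5. The arm with auxin was lower at all 7 times, by a mean of -0.33. Tdh, the threonine dehydrogenase of mouse embryonic stem cells, held an nB peak of 2274 bases inside the gene. Its level was 11.7, 11.0, 10.1, 11.2, 12.8, 14.7 and 13.5 TPM without auxin and 9.31, 9.21, 8.47, 7.71, 8.50, 9.47 and 8.48 with it. The 2 series of Tdh did not overlap, and the difference was already -0.28 in mitosis, before release.

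Of the other naive factors near nB peaks, Pou5f1 was at 19.9 TPM without and 17.0 with auxin at 60 minutes, and its mean difference was -0.18 with 7 of 7 times lower. Its nB peak lay 3327 bases upstream of the start. Klf4 was at 5.84 and 4.31 TPM at 60 minutes, with a mean of -0.23 and 6 of 7 times lower. Esrrb, whose protein is degraded in the arm with auxin, had 11 L, 2 eB, 3 dB and 1 nB peaks and a mean difference of -0.092. In asynchronous cells the differences of Esrrb, Pou5f1 and Klf4 were -0.46, -0.029 and -0.55. Sall4, a zinc finger factor with 2 nB peaks, had the mean difference of smallest size after release among named list members, -0.079. Nr0b1, an orphan receptor that lacks a DNA-binding domain, averaged -0.39, Tcl1 -0.40, Ooep -0.24, Lifr, a receptor of leukemia inhibitory factor, -0.17, and the DNA demethylase Tet2 -0.16. With a pseudocount of 0.1 in place of 1, Nr0b1 was at -0.76 and Ooep at -0.59.

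**Figure D5:**
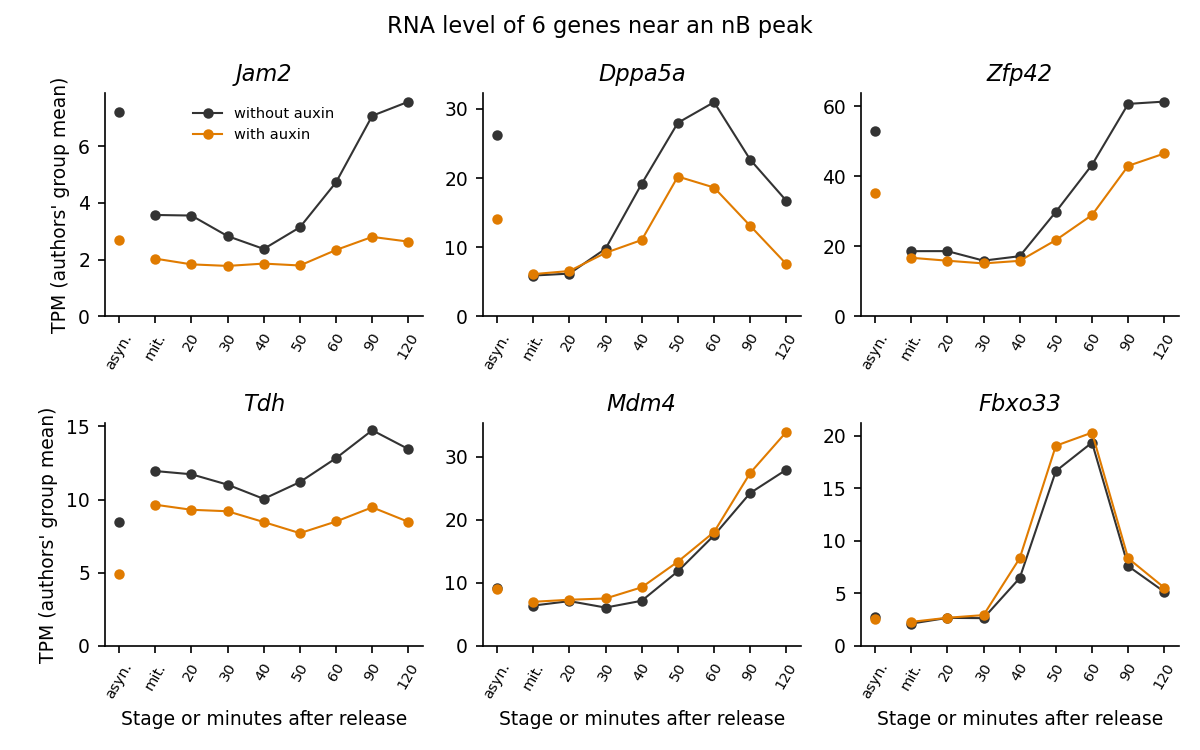
RNA level in TPM (authors' group means, vertical axes from 0) of 6 genes near an nB peak in asynchronous cells, mitosis and 20 to 120 minutes after release, without and with auxin; group means carry no error bars. Jam2, Dppa5a, Zfp42 and Tdh were called lower and Mdm4 and Fbxo33 higher.

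Outside the list, Zc3h12a, an RNase that degrades inflammatory transcripts, averaged 3.51 TPM over the release times without auxin and 2.23 with it, a mean difference of -0.51. Epha4, an ephrin receptor with 13 peaks near it, averaged 3.24 and 2.10 TPM, a difference of -0.44. The neighbours 2410137M14Rik and H2-M5 share 1 nB peak of 1913 bases, chr17:36981746-36983659, which lies between them. Their mean differences were -0.44 and -0.42. Nanos3, an RNA-binding protein of germ cells, averaged 1.93 and 1.20 TPM and was lower at all 7 times, by -0.40, or -0.63 with a pseudocount of 0.1.

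Calls of higher had smaller sizes. Mdm4, an inhibitor of p53, held an nB peak inside the gene beside 2 L, 2 eB and 2 dB peaks. Its release values were 7.10, 6.08, 7.15, 11.8, 17.5, 24.2 and 27.9 TPM without auxin and 7.32, 7.51, 9.29, 13.4, 18.1, 27.4 and 33.9 with it. It was higher at all 7 times by a mean of 0.18, and asynchronous cells had 9.13 and 9.08 TPM. Errfi1, a feedback inhibitor of the EGF receptor, also averaged 0.18, and Oxnad1 0.16 with 6 of 7 times higher. Ints6, a subunit of the Integrator complex, and Matr3, a nuclear matrix protein, had an nB peak as their only peak and averaged 0.17 and 0.16. The nB peak of Matr3 is also that of the neighbouring snoRNA host gene Snhg4, which averaged 0.14.

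Of the 8 genes with the most nB peaks, 1 was called lower and 1 higher. Over all genes with a position these shares were 7.27 and 6.74%, and 8 genes are too few to set against them. Pecam1, which encodes the adhesion molecule CD31, had 6, more than any other gene, along with 5 L and 2 dB peaks. Its level was 0.855 to 1.91 TPM over the release times without auxin and 0.823 to 1.86 with it, and its mean difference was -0.016. Of the other 7, among which ties were broken, 5 were not called, which are Zcchc10, Tango6, Macf1, Nkiras2 and Kdm6b, a histone demethylase, at means of -0.00038, 0.039, -0.014, -0.019 and -0.079. Sipa1l3 was called lower at -0.053 and Prx, a protein of myelinating Schwann cells, higher at 0.067 (0.12 with a pseudocount of 0.1). Over wider sets the share called lower was greater with more nB peaks, at 13.6% (11.9 to 15.4) with exactly 1, 22.8% (18.2 to 28.3) with 2 or more and 24.5% (14.6 to 38.1) with 3 or more. The median number of peaks of any class was 3, 5 and 9 in these sets. The coactivator Ncoa1, with 2 nB peaks inside the gene, was not called and averaged 0.027.

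Genes with nB peaks alone were called higher in 17 of 290 cases (5.86%, 3.69 to 9.19), against 6.74% of all genes. They were called lower in 9 (3.10%), against 7.27%. Calls of higher also outnumbered calls of lower for L peaks alone (269 and 169) and for genes without a peak (345 and 81). The numbers were 39 and 38 for dB peaks alone and 45 and 44 for eB peaks alone. Of the 213 genes with nB peaks alone and at least 1 TPM, 12 were higher at all 7 release times (5.63%, against 3.87% of all). Lower at all 7 were 4 (1.88%, against 5.34%). The called-lower genes of largest size among the 213 were Abca1, a cholesterol exporter, at -0.16 (-0.28 with a pseudocount of 0.1), the helicase Pif1 at -0.12, 1700037H04Rik at -0.098 and Echdc2 at -0.022 (-0.041 with a pseudocount of 0.1). Abca1 was at 1.19 TPM without and 0.969 with auxin at 60 minutes and had its nB peak 2421 bases upstream of the start. Fbxo33, an F-box protein with an nB peak 1692 bases downstream of its start, was called higher. It went from 2.12 TPM in mitosis to 19.4 at 60 minutes without auxin and from 2.29 to 20.3 with it. Its mean difference was 0.13.

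Reactivation of these genes covered a wide range. Rbm38, an RNA-binding protein, went from 3.91 TPM in mitosis to 36.4 at 60 minutes without auxin, a log2 ratio of 2.93, and from 4.33 to 35.4 with it. Fbxo33 had a ratio of 2.71 and the nucleoporin Nup62 2.70, and the ribosomal protein genes Rps12 and Rps27 had 3.69 and 2.61. Ribosomal protein genes have near-identical copies elsewhere in the genome, so the last 2 values are uncertain. At the other end were Chadl at -0.16, Bhlha15 at -0.047, Nprl3, a subunit of a regulator of mTORC1, at -0.0038, Abca1 at 0.023 and Tada2a, an adaptor of acetyltransferase complexes, at 0.067. With auxin, Chadl and Bhlha15 were at 0.33 and 0.35, so their direction turned between the arms, at levels near or below 1 TPM. Of the 10 genes, Abca1 and Rps27 were called lower and Fbxo33 higher, and the mean difference of Rps27 after release was 0.011.

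Genes with an nB peak on the promoter window itself were few. There were 92 under 88 peaks, and 59 of them were in the TPM table, with 5 called lower (8.47%, 3.67 to 18.4) and 2 higher. The lower share was close to the 7.27% of all genes, and its interval also took in the 15.0% of nB genes. The higher share was 3.39%, against 6.74% of all. Those lower were Elovl6, Arhgap32, Adam19, Men1 and Sox15, named after their values were seen. Elovl6, whose sequence is given above, was at 6.84 TPM without and 5.15 with auxin at 60 minutes and lower at all 7 times, by a mean of -0.20, and it had 12 L peaks and 1 dB peak nearby. Arhgap32 was lower at all 7 times by -0.27 and Adam19, a metalloprotease, by -0.14. Men1, which encodes menin, and Sox15 had -0.046 and -0.023. Those higher were Muc1, a cell surface mucin, at 0.12 and Ndufs5, a subunit of respiratory complex I, at 0.074.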

How the data were processed

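The authors deposited a peak list that gives start, end and class code for each region, and a table of TPM per gene and group with their call per gene. STAR, RSEM, DESeq2, Bowtie2, MACS2 and the mm10 build are named without versions, per the submitters' processing notes. Whether peaks were called per library or on pooled libraries, whether starts count from 0 or 1, and which part of a gene was quantified could not be learned from the labels or files. Peak positions are printed as deposited, and width is end minus start. Because the authors deposited TPM as 1 mean per group, the planned limma test over libraries could not be run and no p-value is given.

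Gene positions and starts came from RefSeq on GRCm38.p6, the assembly that mm10 names. Of 13957 genes, 8 had no position and 9 lay on Y, which left 13940. Differences are with minus without auxin on log2(TPM + 1), averaged over the 7 release times. Medians over genes use the 8988 of at least 1 TPM in some group. Shares have 95% Wilson intervals and medians 95% intervals from binomial order statistics. Both treat genes or peaks as independent, which neighbours are not. The summaries were tested on simulated data. Python 3.11.15, pandas 2.3.3, numpy 2.4.6, scipy 1.17.1 and matplotlib 3.10.9 were used.

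The members, gene lists and alternatives were chosen with earlier results of these data known. Named genes, of at least 1 TPM, are the 8 called lower and 5 called higher of largest mean difference, the 8 with the most nB peaks (ties by nB peaks per length, a choice made after the data were seen), the 4 called lower and 4 called higher of largest size and the 5 highest and 5 lowest ratios of 60 minutes to mitosis among genes with nB peaks alone, naive pluripotency members, and nuclear receptors and coregulators with 2 nB peaks or more.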

Additional observations from a re-analysis of the deposited data

How the results depend on the processing

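Assignment within 2 kb or to the nearest gene kept the number of nB genes within 1.5 times of 1731, while 50 kb gave 3712 and nB peaks alone 290. Called lower were 11.8% at 50 kb, 3.10% with nB peaks alone, 2.99% with exactly 1 peak, 9.88% without a dB peak and 18% among genes of at least 1 TPM. Called higher were 6.95% by nearest gene. The median ratio at 60 minutes was 1.35 with a pseudocount of 0.1, 0.60 with no filter and -0.076 with each group centred. The median auxin difference was -0.011 with each stage centred, 0.010 at 2 kb, 0.011 by nearest gene and 0.021 with nB peaks alone. It was 0.0079 without 20 minutes, -0.0037 without 30, -0.0061 without 40 and 0.014 without 60. Centring subtracts the median of all genes, and the cause of the other reversals was not tested. Median width was 611 on chromosome 7, 717 on 10, 756.5 on 14, 744 on 17 and 785 on X. The median spacing became 7109 to any class. Within 2 kb of a start lay 12.7% of nB peaks. The central 200 bases held a motif match in 3.23% of windows. Of 32 named genes that were called, 30 kept the sign of their difference in each of 9 settings. Most of the 32 were named for the size of this difference or as naive pluripotency members called lower. A kept sign was therefore likely beforehand. With a pseudocount of 0.1, 7 of the 32 moved by over 1.5 times (Nanos3, Prx, Abca1, Echdc2, Nr0b1, Ooep, Rps27). Echdc2 turned to 0.0038 without 20 minutes. Rps27 turned to -0.010 with a pseudocount of 0.1, -0.0039 when centred, -0.0045 without 40, -0.029 without 50 and -0.0058 without 60 minutes. No paired analysis was possible because the TPM table holds group means with no replicate columns, and for the same reason leaving out replicates and limma were not run. The depth of the libraries is unknown.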
